A study of Mus musculus with 10 samples.

Results

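Respiratory complex I, NADH:ubiquinone oxidoreductase, is built from proteins of both the nuclear and the mitochondrial genome. Here 44 genes that carry complex I subunit names were compared between livers of female Etnppl knockout mice and wild-type livers. The genes were taken by symbol from a table of 47729 genes. They are 37 nuclear genes whose symbol is Nduf followed by a, ab, b, c, s or v and a number, and the 7 mitochondrial genes mt-Nd1, mt-Nd2, mt-Nd3, mt-Nd4, mt-Nd4l, mt-Nd5 and mt-Nd6. Ndufa4, now placed in complex IV, is counted among the complex I genes here because of its name, and Ndufb1 was not analysed. Complex I takes electrons from NADH at the tip of a hydrophilic arm, passes them along a chain of iron-sulfur clusters to ubiquinone, and uses the energy to pump protons through a membrane arm. It is assembled from modules, N and Q in the hydrophilic arm and ND1, ND2, ND4 and ND5 in the membrane arm, and the mitochondrial genes encode hydrophobic core subunits of the membrane arm. In hepatocytes it reoxidises the NADH made by fatty acid oxidation and the tricarboxylic acid cycle.

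The knockout (KO) females lacked Etnppl, the phosphoethanolamine phospho-lyase, in the whole body, and the wild-type (WT) females carried the intact gene. Both genotypes received chow for 8 weeks and then, for 10 weeks, a diet in which fat supplied 45% of the calories. The labels used here give no strain, age at the start or Etnppl allele design. Poly(A)-selected liver RNA was sequenced in 5 KO and 5 WT libraries, and levels were deposited as FPKM, fragments scaled to transcript length and to the library's mapped fragments. The depth, estimated from the steps between low values, was 21300000 to 28400000 fragments. Etnppl was at 8.69 ± 1.16 FPKM in KO and 36.9 ± 11.5 FPKM in WT livers (mean ± SD, n = 5 each, limma adjusted p = 0.000387), lower in KO livers, the direction their label gives. Its transcript was still read in all KO livers, at 7.36 to 10.19 FPKM, with a mean of 23.55% of the WT mean. Whether any enzyme was made from it was not tested. The labels do not tie each sample to its own animal, and p-values therefore reflect sample-to-sample spread, which may be partly technical. All 6 hepatocyte markers were above the filter, with a summed level of 60871.28 to 71659.57 FPKM in KO and 53165.84 to 64579.92 FPKM in WT livers. Of 3 muscle markers Ckm and Myh7 were at 0 in all libraries, and Actn2 reached 0.02 FPKM in WT and 0 in KO livers. Of 3 brown fat markers Ucp1 was at 0 in all libraries. Cidea reached 0.13 FPKM in KO and 0.05 FPKM in WT livers, and Adipoq 0.53 FPKM in KO and 0.08 FPKM in WT livers.

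The mitochondrial members are cut from long polycistronic transcripts, and for most of them the coding sequence runs to the place where the poly(A) tail is added. In human cells the mRNAs of the genes for ND5 and ND6, which have no transfer RNA gene between them, are known to extend beyond it. Their last 30 bases in GRCm38 (GENCODE M21) are shown with the bases of the stop codon in capitals, because poly(A) selection captures transcripts by the tail at or beyond this end.
mt-Nd1: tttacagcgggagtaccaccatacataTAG
mt-Nd2: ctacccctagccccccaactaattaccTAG
mt-Nd3: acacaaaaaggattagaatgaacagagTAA
mt-Nd4l: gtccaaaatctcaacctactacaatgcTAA
mt-Nd4: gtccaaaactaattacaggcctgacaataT
mt-Nd5: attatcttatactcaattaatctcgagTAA
mt-Nd6: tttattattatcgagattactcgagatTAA
The mt-Nd4 transcript ends in a single T, and the poly(A) tail supplies the rest of its stop codon. The other 6 are annotated with a full TAA or TAG. In mt-Nd1 and mt-Nd2 the last 2 bases are shared with the transfer RNA genes mt-Ti and mt-Tw on the same strand. Whether their mRNAs keep these bases was not measured here. All lie on the plus strand of chromosome M except mt-Nd6, chrM:13552-14070, which is encoded on the opposite strand.

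Some neighbours share annotated bases, which limits how far their levels can be told apart. The end of mt-Nd5 and the end of mt-Nd6 overlap on opposite strands by 14 bases, and mt-Nd4l and mt-Nd4 overlap on the same strand by 7 bases. The overlaps are in capitals, each read along the gene named first. mt-Nd4l and mt-Nd4 are translated from a shared mRNA.
mt-Nd5 over mt-Nd6: tcttatactcaaTTAATCTCGAGTAA
mt-Nd4l over mt-Nd4: caacctactacaATGCTAA
The annotated overlap is 2.7% of mt-Nd6 and 0.8% of mt-Nd5. Any bases of either mRNA beyond its coding sequence are not counted in it. The sources used here do not say whether strand entered the counting. The level of mt-Nd6, 92.03 FPKM over all libraries, stood beside 5777 FPKM for mt-Nd5 on the other strand.

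None of the 7 mitochondrial members passed the threshold of an adjusted p under 0.05 between KO and WT livers, although all 7 fitted log2 fold changes were below 0, or 6 of 7 under median-of-ratios scaling, where mt-Nd4l was above 0. The furthest were mt-Nd6, at 74.5% of the WT mean in KO livers, and mt-Nd2, at 76.6%, while mt-Nd4l was at 98.2%. The median of the 7 was -0.18 on the log2(FPKM + 0.5) scale, a scale that understates the change of low genes, against -0.05 over all 12395 genes tested. Without KO replicate 2 that median was -0.09. In the limma test 8 genes of 12395 passed, 0.0645%, and 65.1% of all genes had a fold change below 0. At an unadjusted p under 0.05 the mitochondrial members numbered 2 of 7, both lower in KO, against 1458 genes in all, 11.8%, of which 1124, or 9.07%, were lower in KO. The same 2 members were also those without overlap between the groups, against 274 of all genes lower in KO without overlap, 2.21%. Fewer mitochondria-rich cells and less transcript per cell cannot be told apart in bulk liver RNA.

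**Figure D1:**
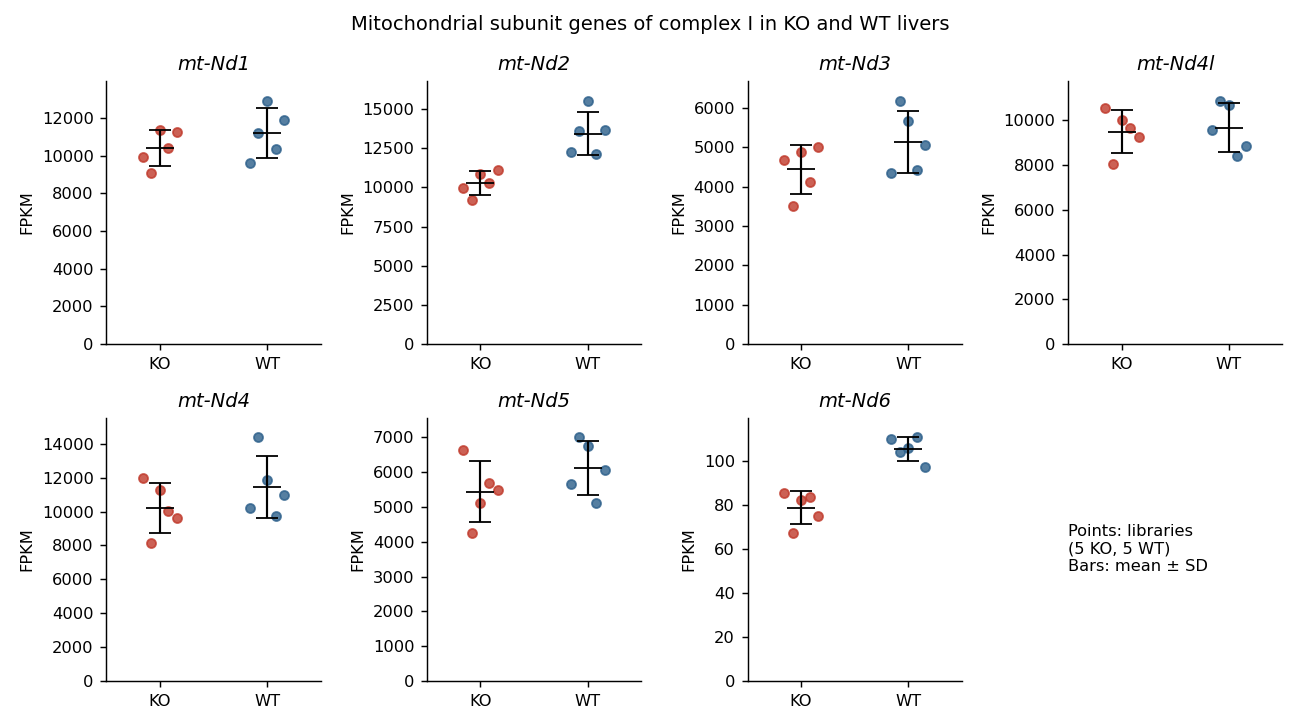
FPKM of the 7 mitochondrial complex I genes in 5 KO (left) and 5 WT (right) livers, with points for libraries and bars for mean ± SD on axes that start at 0. The KO and WT points do not overlap for mt-Nd2 and mt-Nd6 and overlap for the other 5 genes.

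mt-Nd6 encodes a small membrane subunit near the junction of the membrane arm with the hydrophilic arm. In human cells its mRNA is known to lack a long poly(A) tail, and tails were not measured here. In KO livers it was at 85.46, 67.18, 81.92, 83.47 and 74.99 FPKM, against 109.78, 104.04, 105.65, 110.64 and 97.14 FPKM in WT livers. All KO livers lay below all WT livers, and KO replicate 2 was the lowest of the 10. The means were 78.6 ± 7.504 FPKM in KO and 105.5 ± 5.40 FPKM in WT livers, a log2 fold change of -0.43 (95% confidence interval -0.58 to -0.27). Its limma p was 6.79e-05 before adjustment, and its adjusted p of 0.0706 missed the threshold.

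mt-Nd2, one of the antiporter-like proton-pumping subunits, was at 9982.02, 9177.65, 10854.75, 10284.07 and 11098.91 FPKM in KO livers. The WT livers had 12256.72, 13557.01, 15529.98, 12115.80 and 13680.40 FPKM. The groups did not overlap, with WT replicate 3 the highest library and KO replicate 2 again the lowest. The log2 fold change was -0.38 (95% confidence interval -0.56 to -0.21), with a limma adjusted p of 0.12 and an unadjusted p of 0.000464. In each of 22 refits under other settings both mt-Nd6 and mt-Nd2 kept an unadjusted p under 0.05, and neither passed after adjustment.

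mt-Nd1, the subunit at the heel of the enzyme beside the ubiquinone chamber, lies just before mt-Nd2 on the same strand. It was at 9919.13, 9054.63, 11341.90, 10398.32 and 11228.57 FPKM in KO livers, against 9595.14, 11218.86, 12913.65, 10334.26 and 11906.45 FPKM in WT livers. The groups overlapped widely, and WT replicate 1 was below all KO livers except replicate 2. Its log2 fold change was -0.10 (95% confidence interval -0.30 to 0.09), and -0.06 without KO replicate 2 or -0.05 without WT replicate 3. The ratio of mt-Nd2 to mt-Nd1 within a library was 1.01, 1.01, 0.957, 0.989 and 0.988 in KO livers and 1.28, 1.21, 1.2, 1.17 and 1.15 in WT livers. The ratio spread less within a genotype than either gene did and did not overlap between genotypes, at 0.991 ± 0.022 in KO and 1.2 ± 0.049 in WT livers. This pair was chosen after its values were seen, so the ratio is a description without a test.

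mt-Nd4 and mt-Nd5 encode the other antiporter-like pumps, at the far end of the membrane arm. mt-Nd4 was at 11991.30, 8152.38, 11244.97, 10020.58 and 9637.54 FPKM in KO livers, against 10232.84, 14387.11, 11853.59, 9714.48 and 10968.91 FPKM in WT livers. mt-Nd5 was at 6650.93, 4248.49, 5108.26, 5685.18 and 5497.49 FPKM in KO livers, against 5650.20, 7005.96, 6746.05, 5106.74 and 6069.16 FPKM in WT livers. In both genes KO replicate 2 was the lowest library, WT replicate 2 was the highest and the rest of the libraries intermingled. The log2 fold changes were -0.16 for mt-Nd4 and -0.18 for mt-Nd5, with 95% confidence intervals of -0.42 to 0.10 and -0.43 to 0.08. Without KO replicate 2 they were -0.08 and -0.09, and without WT replicate 2 they were -0.08 and -0.12. Without KO replicate 1 mt-Nd5 was at -0.25, the one refit of 22 in which its unadjusted p was under 0.05 (limma adjusted p = 0.457). The ratio of mt-Nd5 to mt-Nd4 was 0.534 ± 0.048 in KO and 0.537 ± 0.032 in WT livers.

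mt-Nd3 and mt-Nd4l encode small subunits between the pumps and the heel. mt-Nd3 was at 4672.32, 3501.02, 4882.29, 4127.69 and 4994.24 FPKM in KO livers, against 4352.76, 6181.82, 5655.83, 4429.35 and 5063.33 FPKM in WT livers. WT replicates 2, 3 and 5 lay above every KO liver, and WT replicates 1 and 4 lay among the KO livers. mt-Nd4l was at 10530.26, 8037.77, 9993.71, 9664.18 and 9268.78 FPKM in KO livers, against 9551.33, 10882.57, 10683.16, 8386.66 and 8862.62 FPKM in WT livers. The KO and WT livers had nearly the same range. The log2 fold changes were -0.21 for mt-Nd3 and -0.02 for mt-Nd4l, with 95% confidence intervals of -0.47 to 0.05 and -0.23 to 0.18. Without KO replicate 2 mt-Nd3 was at -0.13, and without WT replicate 2 at -0.14. The sign for mt-Nd4l turned to 0.03 under median-of-ratios scaling and without KO replicate 2, and was also above 0 without WT replicate 2 or 3.

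Some mitochondrial sequence is repeated almost letter for letter on chromosome 1, and part of the reads are listed there. mt-Nd3 has such a copy, Gm28438, whose 345 bases equal those of mt-Nd3 at 344 places. The one difference in the aligned bases is T3C, counted from the first base of mt-Nd3, and it is in capitals below.
mt-Nd3: atTaacctgtacactgt
Gm28438: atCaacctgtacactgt
Gm28438 held 6.56% to 9.01% of the summed mt-Nd3 and Gm28438 FPKM in KO livers and 7.1% to 8.46% in WT livers. The sum was 4825 ± 684 FPKM in KO and 5574 ± 821 FPKM in WT livers. The copies of the other members held almost nothing, with means of 0.206 FPKM for Gm28439, which matches 876 bases of mt-Nd4, and 0.222 FPKM for Gm10222, which matches 294 bases of mt-Nd4l. For complexes IV and V the share was larger, as mt-Co2 and mt-Atp6 are listed at 0 and their copies Gm28661 and Gm10925 at means of 11444 and 27384 FPKM. mt-Co1 was at a mean of 18348 FPKM, beside 17504 FPKM for Gm29216, which aligns to 483 of its bases at 99.8% identity. The log2 fold changes were 0.01 for mt-Co1 and 0.09 for Gm29216.

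Along the mitochondrial genome the lower values of KO livers did not follow the order of the genes. mt-Rnr1 and mt-Rnr2, the ribosomal RNAs ahead of mt-Nd1, had log2 fold changes of -0.58 and -0.46, with limma adjusted p-values of 0.0222 and 0.0706. mt-Rnr1 is the one mitochondrial transcript that passed in the main fit, and it did so in 11 of 22 refits (limma adjusted p from 0.00846 to 0.0971). The refits where it did not pass include those without any one of KO replicates 1, 2 and 3 or WT replicates 1, 3, 4 and 5. mt-Rnr2 passed in 1 of 22 refits (limma adjusted p from 0.0104 to 0.152). Next came mt-Nd1 at -0.10 and mt-Nd2 at -0.38, then mt-Co1, a complex IV core subunit, at 0.01. The sign of mt-Co1 turned in 9 of 22 refits, among them quantile normalization and the fixed sum outside the mitochondrial genome and its copies. The values of mt-Co2, mt-Atp6 and mt-Co3, read from their copies, were -0.06, -0.14 and -0.04. mt-Cytb, the complex III subunit beyond mt-Nd6, was at -0.08. The groups did not overlap for mt-Rnr1, mt-Rnr2, mt-Nd2 and mt-Nd6 and overlapped for the other 10 transcripts shown. Among all genes tested 2.79% were without overlap, and 2.21% were without overlap and lower in KO. In this poly(A)-selected RNA mt-Rnr1 and mt-Rnr2 averaged 1376 and 1646 FPKM, and how fully the selection captured them was not measured.

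**Figure D2:**
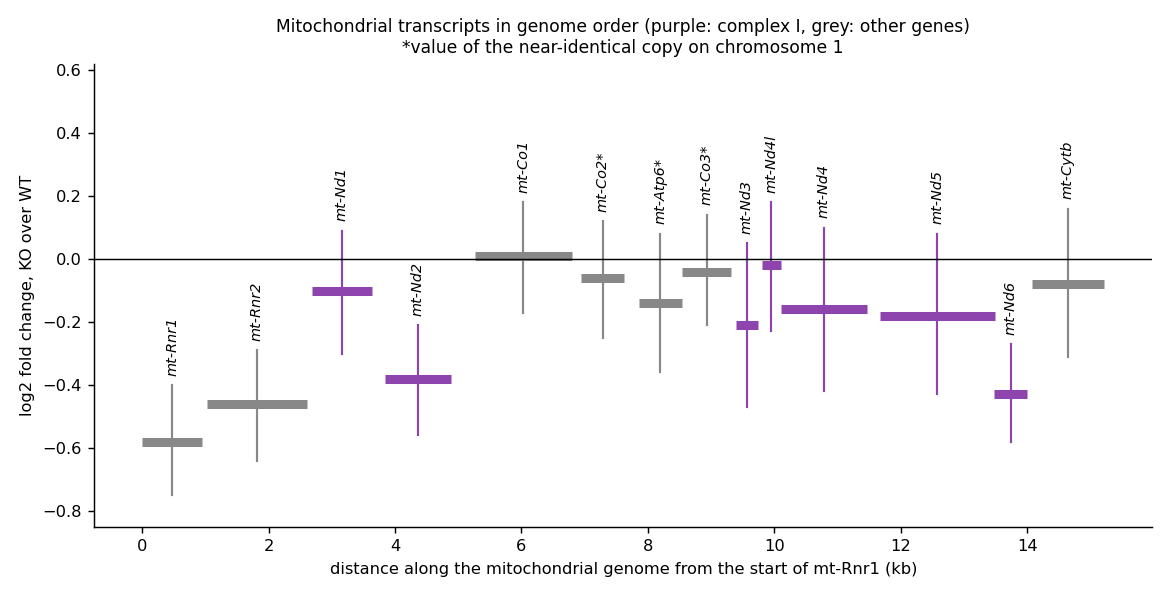
Log2 fold change of KO over WT (vertical axis) for mitochondrial transcripts by distance in kb from the start of mt-Rnr1, with a horizontal bar for each gene's extent and a vertical line for its 95% confidence interval, purple for complex I. Neighbours differ, as mt-Nd1 at -0.10 and mt-Nd2 at -0.38 or mt-Nd5 at -0.18 and mt-Nd6 at -0.43 show. Starred genes are read from their copies on chromosome 1, and mt-Co1 is shown without its copy Gm29216.

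None of the 37 nuclear members, all of which were above the filter of a mean of 0.5 FPKM, passed the threshold between KO and WT livers. In the limma test 0 were past an unadjusted p of 0.05, against 11.8% of all genes tested and 15% of the 5459 genes in the same range of mean FPKM. In 0 of 37 were the groups without overlap, against 2.79% of all genes, of which 0.581% were higher and 2.21% lower in KO. The fitted log2 fold changes ran from -0.10 for Ndufb6 and Ndufv2 to 0.16 for Ndufa5, and the widest confidence bounds were -0.33 and 0.40. There were 25 members above 0 and 12 below, with a median of 0.02, against -0.05 for all genes tested, of which 34.9% were above 0. Under median-of-ratios scaling, which moved the median of all genes to 0.00, 33 of 37 were above 0. With a fixed sum outside the mitochondrial genome and its copies there were 21, and without KO replicate 5 there were 17. The nuclear members varied little between libraries, with a median coefficient of variation of 8.02% in KO and 5.88% in WT livers, against 9.88% and 8.61% for genes in the same range.

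**Figure D3:**
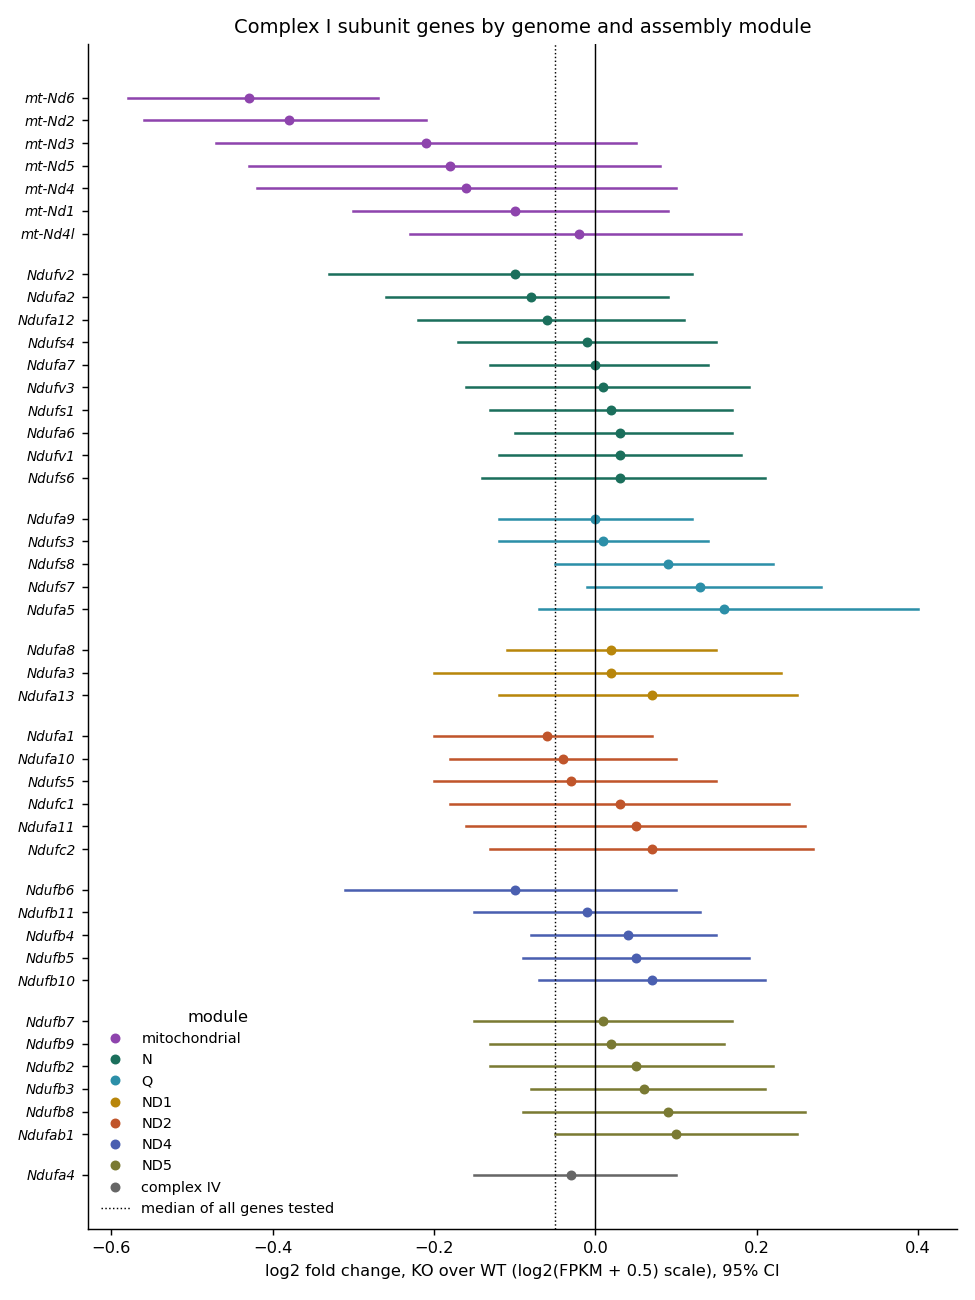
Log2 fold change of KO over WT on the log2(FPKM + 0.5) scale, with 95% confidence intervals, for 43 complex I genes grouped by genome and module, and the median of all genes tested as a dotted line. The nuclear genes lie between -0.10 and 0.16 and every interval includes 0, while the intervals of mt-Nd2 and mt-Nd6 do not.

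In the N module, which binds NADH and holds the flavin, 6 of 10 members were above 0 and 4 below, with a median log2 fold change of 0.01. The split was not stable. Of those above 0, Ndufa7 was below 0 in 8, Ndufv3 in 4, Ndufs1 in 3, Ndufv1 in 2 and Ndufs6 in 1 of 22 refits. Of those below 0, Ndufs4 was below 0 in 17 and Ndufa12 in 21 of 22 refits. Ndufv2, a core subunit with an iron-sulfur cluster, was at 75.68, 52.90, 67.03, 66.81 and 78.68 FPKM in KO livers, against 65.66, 80.90, 74.21, 65.39 and 78.22 FPKM in WT livers. KO replicate 2 was far below the other libraries and the rest overlapped. Ndufa2, an accessory subunit with a thioredoxin-like fold, averaged 72.6 ± 8.20 FPKM in KO and 76.7 ± 4.28 FPKM in WT livers. Their log2 fold changes were -0.10 and -0.08, and that of Ndufv2 was -0.01 without KO replicate 2. Ndufv1, the flavin and NADH binding subunit, averaged 72.3 ± 5.65 FPKM in KO and 70.7 ± 4.16 FPKM in WT livers. Ndufs1, which carries further iron-sulfur clusters, averaged 58.1 ± 4.57 FPKM in KO and 57.2 ± 3.74 FPKM in WT livers. The accessory subunits Ndufa6, Ndufa7, Ndufa12, Ndufs4, Ndufs6 and Ndufv3 had log2 fold changes from -0.06 for Ndufa12 to 0.03 for Ndufa6 and Ndufs6. A processed copy of Ndufa12, Gm15920, was listed at a mean of 1.82 FPKM beside 62.3 FPKM for Ndufa12.

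In the Q module, which carries electrons to ubiquinone, 4 of 6 members were above 0 and 2 below, with a median of 0.05. Ndufs7, a core subunit that holds the last iron-sulfur cluster before ubiquinone, had the lowest p of the nuclear members. It was at 127.46, 137.52, 117.71, 120.54 and 141.40 FPKM in KO livers, against 118.22, 120.88, 121.26, 107.47 and 118.13 FPKM in WT livers. The KO livers 1, 2 and 5 lay above every WT liver, and the other two lay among them. The log2 fold change was 0.13 (95% confidence interval -0.01 to 0.28), with a limma p of 0.064 before and 0.448 after adjustment. Without WT replicate 4, its lowest WT library, the fold change was 0.10. Ndufa5, an accessory subunit, had the largest value, 0.16 (95% confidence interval -0.07 to 0.40), from 60.20, 45.42, 53.96, 50.59 and 66.01 FPKM in KO livers and 52.25, 57.95, 46.39, 41.39 and 48.30 FPKM in WT livers. Its groups overlapped, with the extremes at KO replicate 5 and WT replicate 4. The fold change was 0.09 without KO replicate 5 and 0.10 without WT replicate 4, where Ndufs7 was at 0.10 in both. Ndufs8, a core subunit with iron-sulfur clusters, averaged 48.2 ± 2.16 FPKM in KO and 45.3 ± 3.15 FPKM in WT livers, a log2 fold change of 0.09. Ndufs3 and Ndufa9 were at 0.01 and 0.00.

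In the membrane arm, all 3 members of the ND1 module were above 0, with a median of 0.02, although Ndufa8 was below 0 in 1 and Ndufa3 in 5 of 22 refits. Ndufa13, also known as GRIM-19, averaged 43.3 ± 5.57 FPKM in KO and 41.2 ± 2.32 FPKM in WT livers, and Ndufa8 averaged 77.2 ± 5.22 and 76.1 ± 2.59 FPKM in KO and WT livers. The ND2 module had 3 members above and 3 below 0, with a median of 0.00. Its Ndufa1 averaged 103.2 ± 8.03 FPKM in KO and 107.7 ± 4.12 FPKM in WT livers, and Ndufc2 averaged 37.96 ± 5.46 FPKM in KO and 35.8 ± 1.83 FPKM in WT livers. In the ND4 module 3 of 5 members were above 0, with a median of 0.04, and Ndufb1 was not analysed here. Ndufb6 averaged 51.4 ± 6.05 FPKM in KO and 55.3 ± 5.91 FPKM in WT livers, and Ndufb10 averaged 117.0 ± 7.25 FPKM in KO and 111.5 ± 6.88 FPKM in WT livers. The Smim27 gene on the opposite strand covers 39.0% of the exon bases of Ndufb6, at a mean of 2.62 FPKM. Of the ND1, ND2 and ND4 members Ndufb6 had the lowest limma adjusted p, 0.705. The remaining members had log2 fold changes of 0.02 for Ndufa3, -0.04 for Ndufa10, -0.03 for Ndufs5, 0.03 for Ndufc1, 0.05 for Ndufb5 and -0.01 for Ndufb11.

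All 6 members of the ND5 module, at the tip of the membrane arm, were above 0, with a median of 0.06 and a range of 0.01 to 0.10. The sign was not stable for Ndufb7, which was below 0 in 3 of 22 refits (down to -0.03), nor for Ndufb9, also below 0 in 3 (down to -0.01). Those refits left out KO replicate 2 or 5 for both genes, KO replicate 1 for Ndufb9, or used a fixed sum outside the mitochondrial genome and its copies for Ndufb7. Ndufab1, the mitochondrial acyl carrier protein, which also serves mitochondrial fatty acid synthesis, was at 150.73, 159.18, 142.11, 144.24 and 171.87 FPKM in KO livers, against 149.30, 154.01, 138.63, 130.03 and 144.44 FPKM in WT livers. KO replicate 5 was the highest library, WT replicate 4 the lowest, and the groups overlapped. Ndufb2, Ndufb3 and Ndufb7 had log2 fold changes of 0.05, 0.06 and 0.01. Ndufb8 averaged 229.4 ± 24.3 FPKM in KO and 215.4 ± 14.1 FPKM in WT livers. Ndufb9 had the highest level of the nuclear members, at 321.3 ± 26.4 FPKM in KO and 316.8 ± 12.3 FPKM in WT livers. Ndufa4, which keeps a complex I name but is now placed in complex IV, averaged 272.0 ± 15.9 FPKM in KO and 276.7 ± 6.16 FPKM in WT livers. By type, 5 of 7 nuclear core subunits and 20 of 29 accessory subunits were above 0, each with a median of 0.02.

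The levels, per transcript length and averaged over all libraries, fell into 3 tiers. The mitochondrial genes other than mt-Nd6 were highest, from 4786 FPKM for mt-Nd3 to 11854 FPKM for mt-Nd2. The 4 highest, mt-Nd2, mt-Nd4, mt-Nd1 and mt-Nd4l, overlapped in KO livers. In WT livers mt-Nd2 averaged 13428 FPKM and mt-Nd4l 9673 FPKM without overlap, while mt-Nd4 and mt-Nd1 between them overlapped both. mt-Nd5 and mt-Nd3 overlapped each other and lay below those 4 in every library. The nuclear genes followed, from 319.1 FPKM for Ndufb9 through a median of 76.6 FPKM to 20.1 FPKM for Ndufs4, and mt-Nd6 lay among them. The lowest member, Ndufa11, an accessory subunit of the ND2 module, was at 7.08, 7.57, 7.25, 7.55 and 9.42 FPKM in KO livers, against 6.62, 7.44, 7.13, 7.42 and 8.81 FPKM in WT livers. Replicate 5 was the highest in both genotypes and the groups overlapped.

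**Figure D4:**
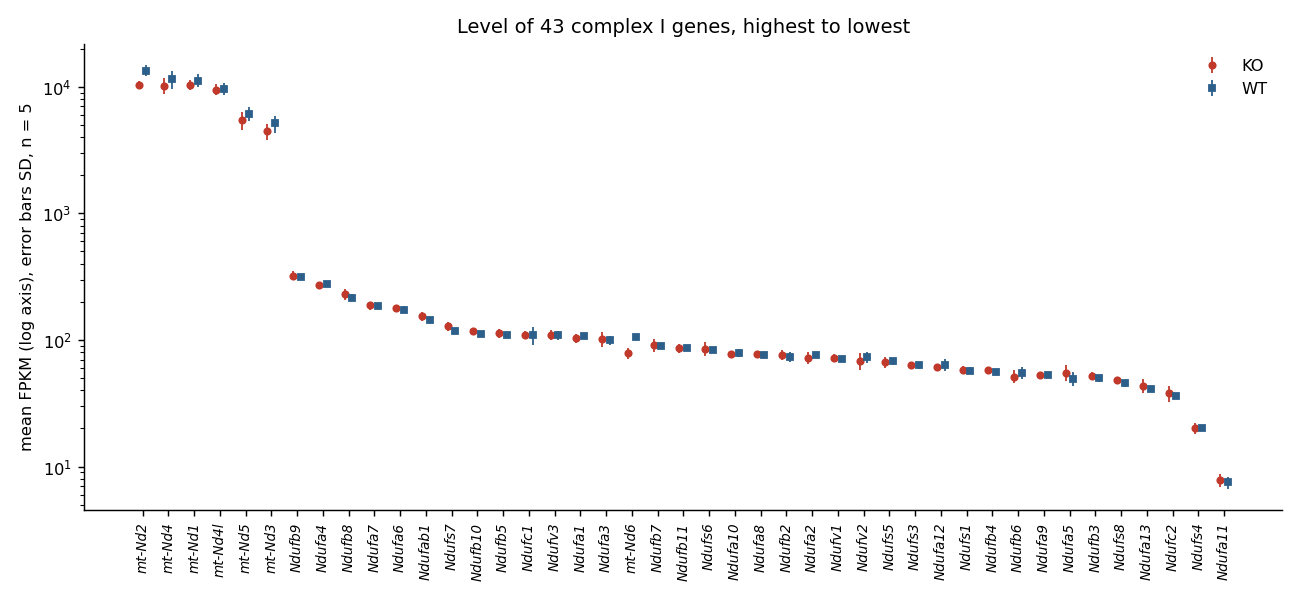
Mean FPKM with SD bars of 43 complex I genes in KO (red circles) and WT (blue squares) livers, on a log axis, from highest to lowest over all libraries. The mitochondrial genes except mt-Nd6 stand above the nuclear ones, which run from 319.1 FPKM for Ndufb9 to 7.63 FPKM for Ndufa11.

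Summed over genes, the 2 genomes differed in which libraries were high and low. The mitochondrial sum was 53831, 42239, 53508, 50263 and 51801 FPKM in KO livers, against 51749, 63337, 63488, 50198 and 56648 FPKM in WT livers. KO replicate 2 was lowest and WT replicates 2 and 3 highest, and the remaining libraries overlapped. The nuclear sum was 3680, 3703, 3389, 3440 and 3901 FPKM in KO livers, against 3439, 3621, 3692, 3518 and 3567 FPKM in WT livers. KO replicate 5 had the highest nuclear sum, and KO replicate 2, the lowest in the mitochondrial sum, was second in the nuclear one. The mitochondrial mean level was 73.7 ± 8.84 times the nuclear mean in KO livers and 84.5 ± 7.27 times in WT livers. The share of all mitochondrial genes in the summed FPKM was 11.6 ± 1.02% in KO and 12.6 ± 1.03% in WT livers, and 21.0 ± 1.83% and 22.3 ± 1.69% in KO and WT livers with the chromosome 1 copies.

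**Figure D5:**
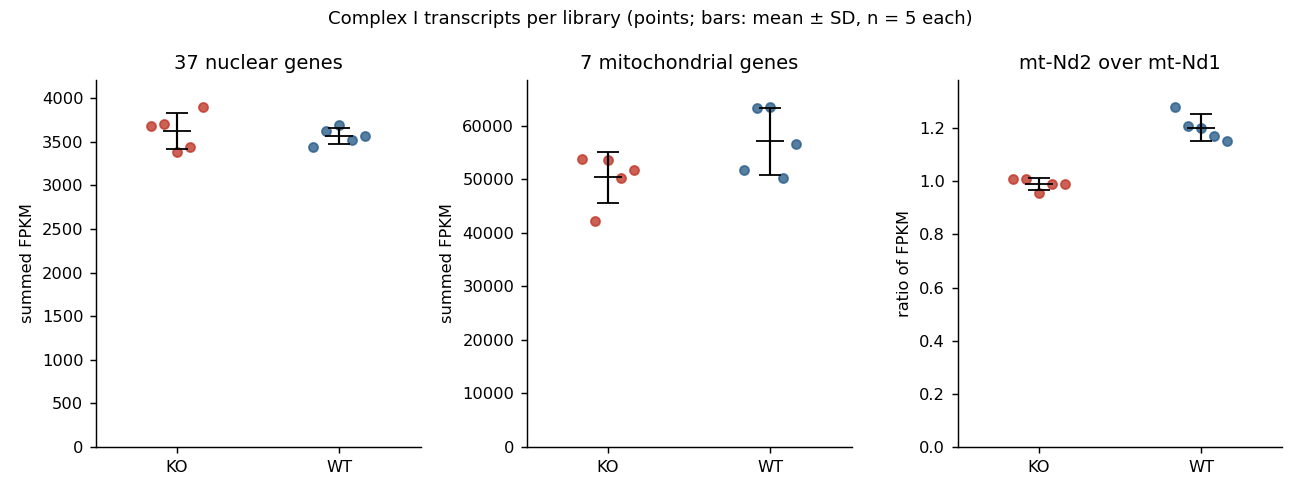
Summed FPKM per library of the 37 nuclear and 7 mitochondrial complex I genes, and the ratio of mt-Nd2 to mt-Nd1, in KO (left) and WT (right) livers, with bars for mean ± SD. The sums overlap between genotypes, whereas the ratio is at most 1.01 in KO and at least 1.15 in WT livers.

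The promoters of the nuclear members were searched for motifs of factors known to drive respiratory chain genes. RefSeq windows of 250 bases before and 50 after the start (GRCm38.p6) were found for 33 of 37 members. Both strands were read. The NRF1 motif was in 7 members, 21.2%, against 5.19% of 27025 genes. The YY1 motif AANATGGCG was also in 7 members, 21.2%, against 2.76%, and the ESRRA motif TNAAGGTCA was in 1 member, against 1.43%. A match describes letters and is not a bound site. The YY1 match began 22 to 35 bases after the start in Ndufa9, Ndufc1, Ndufs4, Ndufs6 and Ndufs7, and before the start in Ndufa7 and Ndufb11. Its letters contain ATG, and whether a match is a translation start was not tested. The promoters of Ndufs7 (chr10:80249199-80249498, plus strand), of Ndufs6 (chr13:73328433-73328732, minus strand) and of Ndufb4 (chr16:37654319-37654618, minus strand) are shown with the motifs in capitals. Ndufs7 has the lowest p of the nuclear genes, Ndufs6 has both an NRF1 and a YY1 motif, and Ndufb4 has 3 NRF1 motifs and the ESRRA motif, without overlap between motifs. The YY1 motif begins 24 bases after the start in Ndufs7 and 33 bases after it in Ndufs6.
Ndufs7 promoter: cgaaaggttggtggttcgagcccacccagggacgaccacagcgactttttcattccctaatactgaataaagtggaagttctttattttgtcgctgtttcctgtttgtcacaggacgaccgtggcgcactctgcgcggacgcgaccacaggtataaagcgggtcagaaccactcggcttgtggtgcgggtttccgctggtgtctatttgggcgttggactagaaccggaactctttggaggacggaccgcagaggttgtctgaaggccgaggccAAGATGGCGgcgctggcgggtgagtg
Ndufs6 promoter: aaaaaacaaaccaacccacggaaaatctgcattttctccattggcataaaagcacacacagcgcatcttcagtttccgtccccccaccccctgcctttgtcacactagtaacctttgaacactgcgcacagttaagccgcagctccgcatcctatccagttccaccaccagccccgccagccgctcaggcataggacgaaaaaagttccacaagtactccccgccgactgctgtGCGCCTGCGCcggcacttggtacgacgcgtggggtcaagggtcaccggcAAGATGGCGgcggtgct
Ndufb4 promoter: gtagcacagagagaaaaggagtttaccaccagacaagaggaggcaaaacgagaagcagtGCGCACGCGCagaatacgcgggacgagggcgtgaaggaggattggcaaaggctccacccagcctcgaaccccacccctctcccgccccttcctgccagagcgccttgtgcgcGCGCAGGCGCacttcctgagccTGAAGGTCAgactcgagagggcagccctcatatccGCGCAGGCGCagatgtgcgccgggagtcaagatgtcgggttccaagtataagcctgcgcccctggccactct
Ndufs6 averaged 85.2 ± 10.97 FPKM in KO and 82.9 ± 2.70 FPKM in WT livers. Ndufb4 varied little, at 57.4 ± 1.16 FPKM in KO and 55.9 ± 2.72 FPKM in WT livers, and its processed copy Ndufb4c was listed at a mean of 3.27 FPKM.

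The factors themselves were measured with coactivators of the same programme, 6 genes in all, of which 3 had fold changes above 0 and 3 below, with a median of -0.07. None passed the limma threshold, and 1 above and 2 below 0 had an unadjusted p under 0.05, against 2.69% of all genes above and 9.07% below. Ppargc1a, the coactivator PGC-1 alpha, was at 5.61, 4.12, 5.99, 7.37 and 3.90 FPKM in KO livers, against 4.13, 2.80, 3.68, 4.09 and 4.11 FPKM in WT livers. The KO livers 1, 3 and 4 lay above every WT liver, and its log2 fold change was 0.45 (limma adjusted p = 0.285). Gabpa, a subunit of the factor also called NRF2 or GABP, averaged 10.7 ± 0.981 FPKM in KO and 12.8 ± 0.932 FPKM in WT livers (limma adjusted p = 0.233). Yy1 averaged 16.6 ± 1.11 FPKM in KO and 18.4 ± 0.847 FPKM in WT livers. Ppargc1a, Gabpa and Yy1 were picked from the list after their values were seen. Nrf1 and Esrra had log2 fold changes of 0.01 and 0.12 (limma adjusted p = 0.982 and 0.726). Of the genes in this list only Nrf1, Yy1 and Esrra encode factors whose motifs were searched.

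Of 18 assembly factors of complex I, 6 were above and 12 below 0 in KO livers relative to WT, with a median of -0.03, and none passed the limma threshold. At an unadjusted p under 0.05 there were 3, against 11.8% of all genes. Ndufaf1, which acts on the early membrane arm in the intermediate complex with Acad9 and Ecsit, was at 13.44, 12.46, 13.18, 12.67 and 13.56 FPKM in KO livers, against 14.62, 14.27, 16.16, 13.28 and 14.96 FPKM in WT livers. WT replicate 4 alone lay within the KO range. Acad9, an acyl-CoA dehydrogenase family member in the same intermediate, averaged 17.8 ± 1.30 FPKM in KO and 15.7 ± 1.61 FPKM in WT livers. Tmem186 averaged 4.40 ± 0.631 FPKM in KO and 5.29 ± 0.508 FPKM in WT livers, and Tmem126b, of the same complex, 10.2 ± 0.905 FPKM in KO and 11.4 ± 0.970 FPKM in WT livers. The log2 fold changes were -0.16 for Ndufaf1, 0.18 for Acad9, -0.25 for Tmem186 and -0.16 for Tmem126b, so members of one assembly complex stood on both sides of 0.

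Of 16 genes that transcribe, process or stabilise mitochondrial RNA, 5 were above and 11 below 0, with a median of -0.06, and none passed the limma threshold. Tfb2m, the initiation factor that opens mitochondrial promoters with the mitochondrial RNA polymerase, was at 14.26, 13.22, 12.59, 12.44 and 12.70 FPKM in KO livers, against 15.50, 15.86, 15.60, 15.69 and 14.81 FPKM in WT livers. All KO livers lay below all WT livers, and Tfb2m was the 1 gene of the 16 without overlap. Among all genes tested, 2.21% were lower in KO without overlap. The log2 fold change of Tfb2m was -0.24 (95% confidence interval -0.37 to -0.11), with a limma p of 0.00173 before and 0.157 after adjustment. It was the 1 gene of the 16, 6.25%, with an unadjusted p under 0.05, against 11.8% of all genes. Tefm, the elongation factor, averaged 8.80 ± 0.768 FPKM in KO and 7.81 ± 0.711 FPKM in WT livers. Fastkd5, which in human cells serves the processing of transcripts not flanked by transfer RNAs, averaged 2.78 ± 0.103 FPKM in KO and 3.21 ± 0.292 FPKM in WT livers. Grsf1, an RNA-binding protein of mitochondrial RNA granules, averaged 40.8 ± 2.54 FPKM in KO and 44.03 ± 1.56 FPKM in WT livers. Fold changes of these 3 were 0.16, -0.17 and -0.11 on the log2 scale. The part of Tfb2m or of any other of these genes in the levels of the mitochondrial members was not tested.

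Cell type markers were set beside the members because mitochondria differ in number between liver cells. All 6 hepatocyte markers had fold changes above 0, with a median of 0.20, beside -0.18 for the mitochondrial members. All 5 Kupffer cell markers and all 4 stellate cell markers were below 0, with medians of -0.11 and -0.08, and none of these 15 genes passed the limma threshold. Among all genes tested 65.1% were below 0, with a median of -0.05. Of the hepatocyte markers Cps1 had the largest value, 0.49, and was the 1 without overlap, against 0.581% of all genes higher in KO without overlap. Kupffer markers summed to 162.64 to 246.28 FPKM in KO and 186.30 to 256.35 FPKM in WT livers, and stellate markers to 159.10 to 176.40 FPKM in KO and 164.55 to 216.39 FPKM in WT livers. Sinusoidal endothelial markers, with 3 of 4 above 0, summed to 93.75 to 110.63 FPKM in KO and 97.27 to 102.99 FPKM in WT livers. Cholangiocyte, lymphocyte and erythroid markers summed to at most 2.76, 3.07 and 33.31 FPKM in KO and 3.36, 5.06 and 44.61 FPKM in WT livers. The part of cell composition in the levels of complex I genes was not tested.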

How the data were processed

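Liver RNA of 5 KO and 5 WT samples was compared, grouped by the genotype label. Values are FPKM per gene as the authors deposited them. STAR, RSEM, DESeq2, DESeq, R 4.0.2 and build mm10 are named, without roles, per the submitters' processing notes. Which annotation release and strand setting were used is not given in the sources read here. Of the table's columns 2 without a name were not used.

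Values were transformed as log2(FPKM + 0.5). Genes averaging 0.5 FPKM or more (12395) entered a limma 3.58.1 fit in R 4.3.3 (trend and robust prior, genotype only, two-sided, Benjamini-Hochberg over all genes tested, threshold 0.05), with the script tested on simulated data. Refits used other pseudocounts, filters, scalings and priors, a replicate block, and each library left out. Depth was estimated from steps between low values of genes with 1 transcript of 350 to 1000 bases. Between 92.2% and 95.3% of these values came within 0.1 fragment of a whole number, and counts were not rebuilt. Coordinates and transcripts are from GENCODE M21 (GRCm38). Copies of at least 95% identity over 200 bases were found with blastn 2.17.0, and matplotlib 3.10.9 (Python 3.11.15) drew the figures.

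The members and lists were chosen with earlier results of these data known. The rule for named genes takes all mitochondrial members, the 2 nuclear members of lowest p in each module, the highest and lowest nuclear member, the 4 lowest p in the assembly and mitochondrial RNA lists, the other mitochondrial genes with their copies, and Etnppl. Other nuclear members named, the copies Gm15920 and Ndufb4c, Ppargc1a, Gabpa, Yy1 and the ratios between members are outside it. They were chosen after their values were seen, as were Nrf1, Esrra and the single cell type markers named. The values of 1 nuclear member are not reported here, but it is counted in the totals.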

Additional observations from a re-analysis of the deposited data

Results flagged for a closer look

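Among 88 groups of 5 libraries (44 genes in 2 genotypes), 2 held a library far from the other 4, with a gap over the range above the Dixon value of 0.71. Chance alone puts about 1 in 20 such groups past it. Ndufa11 was at 9.42 FPKM in KO replicate 5, against 7.08 to 7.57 FPKM in the other KO livers, a gap of 0.791 of the range, and WT replicate 5 was also the highest of its group. Ndufs7 was at 107.47 FPKM in WT replicate 4, against 118.13 to 121.26 FPKM in the other WT livers, a gap of 0.773 of the range.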

How the results depend on the processing

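Refits under 22 other settings, and an adjusted p threshold of 0.1, called 0 of 37 nuclear members, and of the mitochondrial members 1 at the threshold of 0.1 (mt-Nd6) and 0 otherwise. Of all genes 8 were called, but 5 with no filter, 5 with no trend or robust prior and 30 at the threshold of 0.1. The count was 4 to 18 with 1 library left out, lowest without KO replicate 2, WT replicate 1 or WT replicate 5 and highest without WT replicate 2. It was 5 without any one of KO replicates 1 and 3 and WT replicates 3 and 4. The calls were 4 higher and 4 lower in KO as deposited, 5 and 2 under median-of-ratios scaling, and 2 and 4 with a fixed sum outside the mitochondrial genome and its chromosome 1 copies. That last scaling and the summing of mt-Nd3 with its copy were chosen after seeing the data. With the replicate number as a block 5 genes were called, among them no member. The labels do not say what the numbers share. Deviations of same-numbered KO and WT libraries correlated at -0.025 to 0.204, over 0.1 in 2 of 5 pairs and not in all, so the block was not used in the report. For 3 of 5 KO libraries the best match was the WT library of their own number, where chance gives 1 of 5 on average, a hint of pairing from the data and not from the design.

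The median of the nuclear members ran from 0.00 to 0.07 and that of the mitochondrial members from -0.24 to -0.09. The adjusted p ran from 0.061 to 0.155 for mt-Nd6 and from 0.106 to 0.226 for mt-Nd2. Signs turned only where values were near 0, and the list that follows covers only genes taken by the rule for named genes. Signs also turned for other nuclear members, such as Ndufa7, below 0 in 8 of 22 refits, and Ndufa9, below 0 in 15. Under median-of-ratios scaling Ndufa4 and mt-Nd4l were at 0.03 and Gm28437 at 0.02. Under quantile normalization mt-Co1 was at -0.02, Gm28437 at 0.01 and Gm28661 at 0.03. With a fixed sum outside the mitochondrial genome mt-Co1 was at 0.00, and at -0.01 when its copies were left out too. With 1 library left out mt-Nd4l ran from -0.07 to 0.03, mt-Co1 from -0.02 to 0.05, mt-Cytb from -0.13 to 0.01, Gm28437 from -0.07 to 0.01, Ndufa8 from -0.01 to 0.05, Ndufa11 from -0.02 to 0.11 and Ndufb9 from -0.01 to 0.06. The cause was not tested. At an unadjusted p under 0.05 Ndufs7 stood in 4 of 22 refits, and Ndufab1 and Ndufs8 in 1 each.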
